A study of Homo sapiens with 12 samples.

Results

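The genes described here make cholesterol and fatty acids. The list holds 32 genes of the mevalonate pathway, the sterol pathway, fatty acid synthesis and their regulators, and members were found by gene symbol, with 1 probe set a gene, the one with the highest mean signal. Of the 32 genes, 29 had a probe set annotated with their symbol alone, and all 29 passed the filter on low signal, among 13882 genes tested. CYP51A1 and FADS1 lay only on probe sets that carry several symbols, and FDFT1 was not analysed here. The study used CL1-5, which is known as the more invasive line, and its less invasive relative CL1-0, both grown from a human adenocarcinoma of the lung, so that a difference between the lines is a difference between a single pair of lines. Cells grown in a microfluidic chip in medium with serum were moved to serum-free medium for 2 h with a direct-current electric field of 300 mV/mm or with none (0 mV/mm), and all groups were detached with trypsin afterwards. The 4 groups, CL1-5 under the field, CL1-5 without the field, CL1-0 under the field and CL1-0 without the field, held 3 arrays each, which the design text calls biological replicates.

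Cholesterol synthesis starts with acetyl-CoA, runs through mevalonate to isoprenoid units, joins these into squalene and closes and trims the sterol ring. Fatty acid synthesis uses the same acetyl-CoA, which ATP citrate lyase makes from citrate, and then elongates and desaturates the chain. Both branches are transcribed under the sterol regulatory element binding proteins, SREBPs, which leave the endoplasmic reticulum for the Golgi and are cut to an active form when membrane sterol is low. INSIG1 holds SREBPs back when sterol is present and is itself an SREBP target, so the pathway carries its own brake. Serum brings lipoprotein cholesterol, and in many cultured cells its removal is known to raise these genes. All 4 groups here were without serum for the same time.

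The promoters of INSIG1, MSMO1, LSS and NSDHL, the 4 sterol genes that passed the test between the lines in the fit without a replicate block and have a sequence entry, are shown first, because SREBPs bind beside the factors NF-Y and Sp1 at many sterol genes. Each is the stretch of 250 bases before the annotated start of the gene, from RefSeq on GRCh38.p14, read in the direction of the gene. They are chr7:155297628-155297877 on the plus strand for INSIG1, chr4:165327419-165327668 on the plus strand for MSMO1, chr21:46228775-46229024 on the minus strand for LSS and chrX:152830813-152831062 on the plus strand for NSDHL. Capitals mark CCAAT, the core bound by NF-Y, in either orientation, and the E-box CACGTG.
INSIG1: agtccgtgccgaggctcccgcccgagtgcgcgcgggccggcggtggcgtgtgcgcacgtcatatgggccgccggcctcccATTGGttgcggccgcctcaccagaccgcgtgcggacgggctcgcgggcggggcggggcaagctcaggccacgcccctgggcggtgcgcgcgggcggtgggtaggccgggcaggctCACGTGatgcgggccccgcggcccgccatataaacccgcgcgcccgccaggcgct
MSMO1: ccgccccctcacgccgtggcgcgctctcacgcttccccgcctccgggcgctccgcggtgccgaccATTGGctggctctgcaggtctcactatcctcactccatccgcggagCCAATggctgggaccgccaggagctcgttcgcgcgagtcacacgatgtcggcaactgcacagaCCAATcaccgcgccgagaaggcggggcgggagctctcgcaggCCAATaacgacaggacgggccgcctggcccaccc
LSS: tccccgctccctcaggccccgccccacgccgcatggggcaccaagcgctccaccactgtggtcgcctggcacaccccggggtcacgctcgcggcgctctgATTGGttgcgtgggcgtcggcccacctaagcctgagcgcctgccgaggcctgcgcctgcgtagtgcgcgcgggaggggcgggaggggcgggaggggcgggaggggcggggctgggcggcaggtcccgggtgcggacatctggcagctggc
NSDHL: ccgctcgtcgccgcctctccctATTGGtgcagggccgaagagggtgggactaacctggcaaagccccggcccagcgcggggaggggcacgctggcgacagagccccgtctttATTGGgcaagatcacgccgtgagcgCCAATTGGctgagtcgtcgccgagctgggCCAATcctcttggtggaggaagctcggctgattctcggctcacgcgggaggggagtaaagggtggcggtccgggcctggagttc

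NSDHL, which was lower in CL1-5, carries the same CCAAT core as the 3 genes that were higher there, and in its CCAATTGG stretch the forward and the reverse core overlap. The Sp1 core GGGCGG, read on both strands, lay 5 times in the window of INSIG1, 2 times in that of MSMO1 and 6 times in that of LSS, and 0 times in that of NSDHL. Over all members, 26 of 29 had a promoter entry. Searched on both strands, CCAAT lay in the window of 21 of these 26 (80.8%), against 37.0% of 27305 genes with an entry. GGGCGG lay in 24 members (92.3%), all but NSDHL and ELOVL5, against 46.2% of all genes. CACGTG lay in 3 members (11.5%), namely INSIG1, SC5D and ELOVL5, against 7.73% of all genes. TCACNCCAC, a form of the sterol regulatory element, lay in 1 member (3.85%), SREBF2, against 1.09% of all genes. These shares describe letters in 1 window a gene start and say nothing of binding. The 27305 genes also include genes that did not pass the filter on low signal, while all 26 members passed it. Whether the shares of the members differ from those of other genes past the filter was not tested. LPIN1 has 3 annotated starts, and CCAAT lay before none of them. ACAT2, SQLE and FASN have no entry.

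The arrays had equal scaling, with a mean signal of 500.07 to 500.08 after trimming, and their median signal lay between 60.7 and 72.4. Precision is limited by how many arrays there are. Replicate 1 of every group stood apart: its 4 arrays gave 3.64 to 14.5 signal units for the spike-in transcript dap, added to RNA before labelling, against 1250 to 1660 on the 8 arrays of replicates 2 and 3. The 18S ribosomal probe set read 28.8 to 106.6 on them, against 1682 to 2954 on the 8 arrays. The calls on the lines are therefore also given for replicates 2 and 3 alone. Of 6 epithelial markers, KRT7, KRT8 and KRT18 lay above the array median on all 12 arrays, while CDH1 did so on 9, EPCAM on 6 and KRT19 on 2. Of the lung markers SFTPB lay above the median on 12 arrays, NAPSA on 10, SFTPC on 6, SCGB1A1 on 2 and SFTPD on none. Of the fibroblast markers COL1A1 lay above it on 12 arrays, DCN on 7, PDGFRA on 6 and LUM on 1. The leukocyte genes PTPRC and CD14 and the endothelial genes CDH5 and VWF lay above the median on no array. The leukocyte gene CD3E and the endothelial gene KDR did so on 6 arrays each. The summed signal of 6 epithelial markers was 16400 to 32700 in CL1-5 and 3190 to 24700 in CL1-0, and that of 4 endothelial markers, among which PECAM1 lay above the median on all 12 arrays, was 331 to 1730 in CL1-5 and 138 to 219 in CL1-0. The epithelial sum is mostly KRT18 and KRT8. CDH1 and EPCAM ran the other way, with mean log2 signals of 5.90 and 4.86 in CL1-5 under the field, against 9.51 and 9.28 in CL1-0 under the field, and of 5.77 and 5.18 in CL1-5 without the field, against 9.22 and 9.14 in CL1-0 without the field. The part of these markers in the line differences was not tested.

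Nearly all members lay above the median signal of the array on every array. No detection call was used. FADS2, the delta-6 desaturase, was at or below the median of its array on 3 arrays, and no other member was on any. Mean log2 signals over 12 arrays ran between 6.56 for FADS2 and 14 for SCD, the desaturase that makes oleate. Brightness depends on the probe set, so these values give no order of mRNA amounts between genes. The median SD within groups was 0.35 on the log2 scale over the members, against 0.46 over all genes tested. EBP, the sterol isomerase, had the smallest SD (0.12), and SREBF1, which encodes SREBP-1, the largest (1.26).

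**Figure D1:**
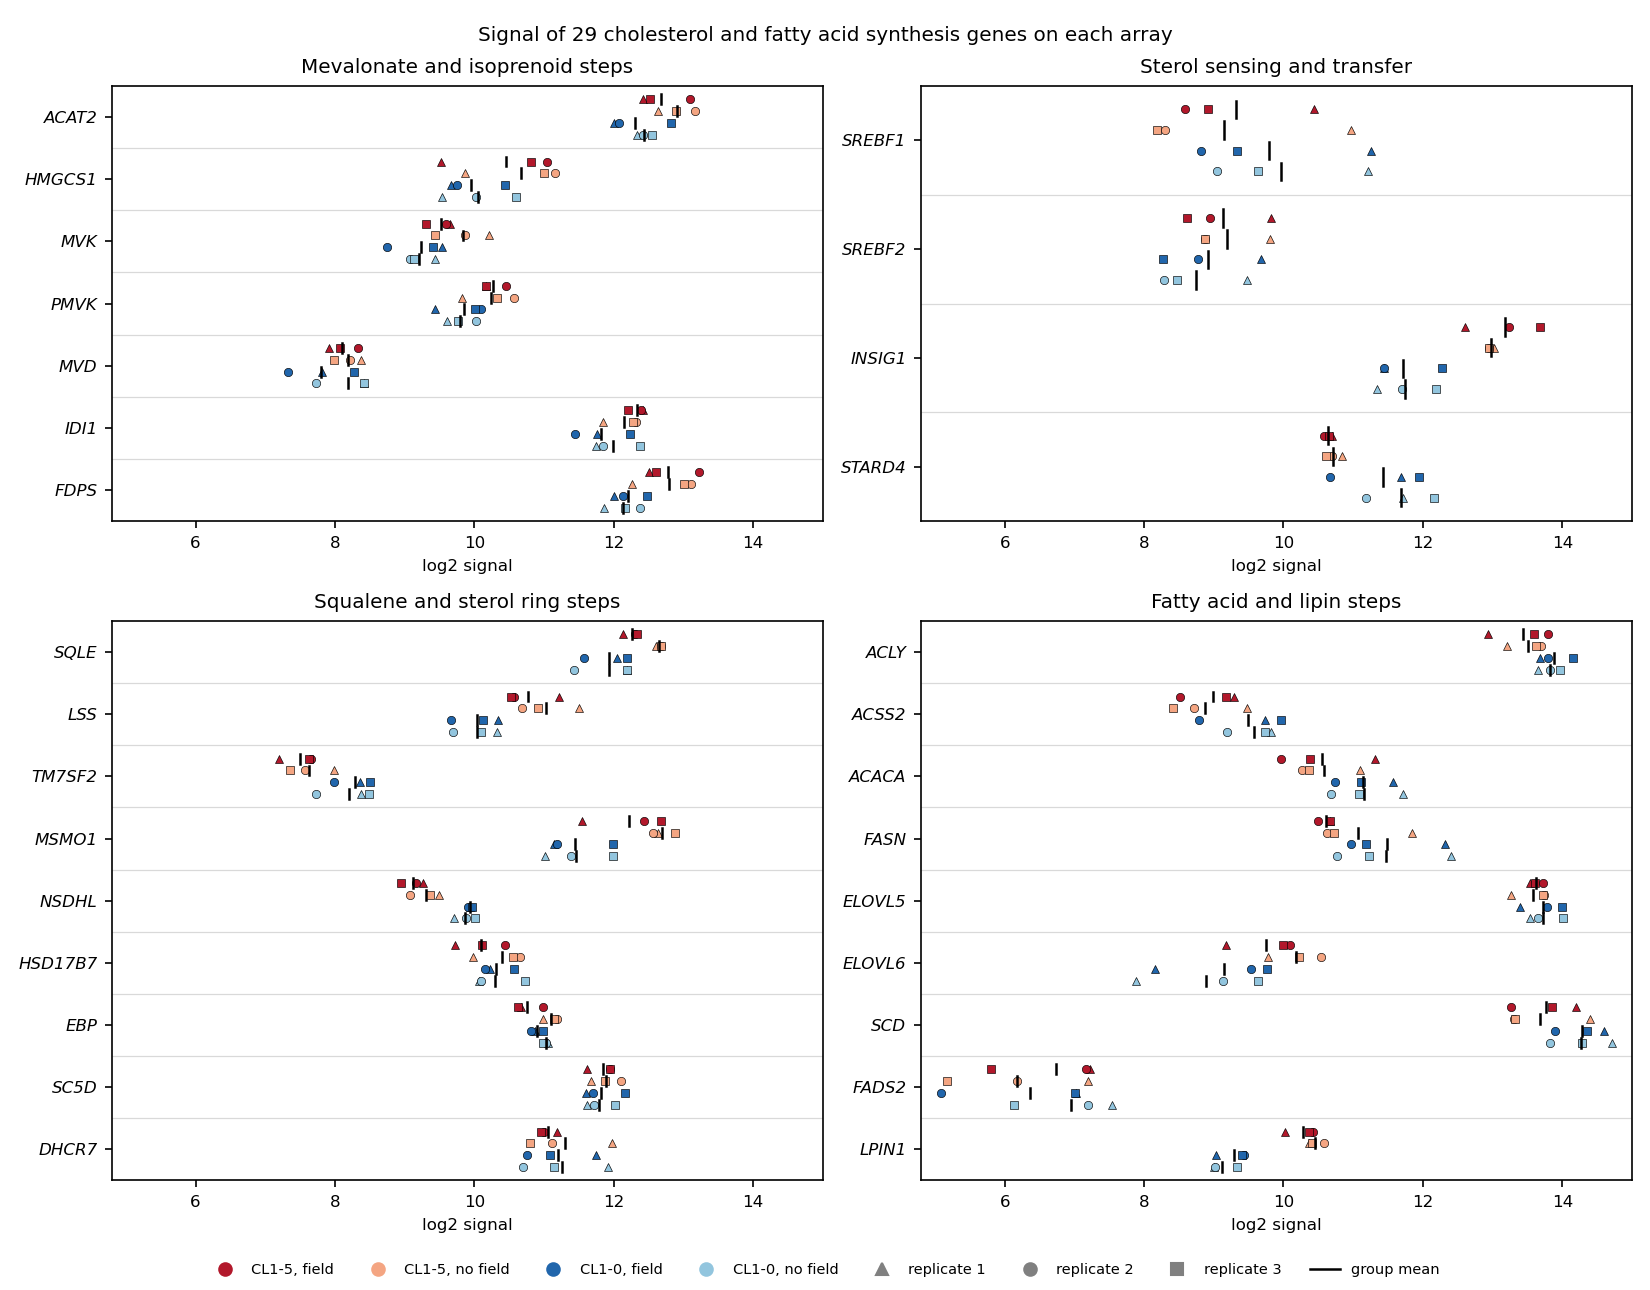
Log2 signal of the 29 members on each of the 12 arrays, 1 panel for each role, with a colour for each group and a marker for each replicate. INSIG1, LPIN1, LSS and MSMO1 averaged higher in CL1-5 than in CL1-0 in both conditions, and replicate 1 of SREBF1 lay 1.69 to 2.73 above the mean of replicates 2 and 3 in its group.

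CL1-5 under the field had more mRNA than CL1-0 under the field for INSIG1, which holds SREBPs back, and for LPIN1, a lipin of triglyceride synthesis, and less for NSDHL, a dehydrogenase of the sterol ring steps. INSIG1 was 2.74-fold and LPIN1 1.98-fold of CL1-0, and NSDHL 0.568-fold (limma over all genes, Benjamini-Hochberg adjusted p under 0.05). RNA was taken from whole cultures, so more mRNA in each cell and a larger share of cells with that mRNA cannot be told apart. These 3 of 29 members (10.3%) compare with 19.4% of all genes tested, 9.81% higher and 9.63% lower in CL1-5. At an unadjusted p under 0.05 there were 7 members (24.1%), against 31.3% of all genes. The arrays of CL1-5 lay above those of CL1-0 in 5 members and below in 3, against 16.8% and 19% of all genes. The share of members was thus under that of all genes in the adjusted and the unadjusted count.

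INSIG1, the sterol-dependent anchor of SREBPs, had log2 signals of 12.61, 13.23 and 13.68 in CL1-5 under the field, against 11.44, 11.44 and 12.28 in CL1-0 under the field. Its highest single signal, 13090 units, was on replicate 3 of CL1-5 under the field, and the lines did not overlap (difference 1.46 ± 0.31 SE, limma adjusted p = 0.00636). LPIN1, a phosphatidate phosphatase that is also a nuclear co-regulator, had 10.02, 10.43 and 10.37 in CL1-5, against 9.03, 9.44 and 9.41 in CL1-0. Again the lines did not overlap, and the difference was 0.98 ± 0.21 (limma adjusted p = 0.00633). Both calls held whichever array was left out.

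NSDHL, which follows MSMO1 in removing the C4 methyl groups of the ring, had 9.26, 9.16 and 8.95 in CL1-5 under the field, against 9.94, 9.91 and 9.97 in CL1-0 under the field. The 3 arrays of CL1-0 lay close together and all above CL1-5. The difference was −0.82 ± 0.20 (limma adjusted p = 0.0127), and the call ended without replicate 3 of CL1-5 under the field (adjusted p = 0.0538).

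Without the field, CL1-5 again had more INSIG1 and LPIN1 mRNA than CL1-0, and it had more of 3 enzymes between squalene and cholesterol. INSIG1, MSMO1, LSS, SQLE and LPIN1 were higher in CL1-5 by 1.65- to 2.52-fold, and no member was lower by the same test. These 5 of 29 members are 17.2%, against 18% of all genes tested, 9.03% higher and 8.93% lower in CL1-5. The share of members past the test was thus close to that of all genes. At an unadjusted p under 0.05 it was 10 of 29 members (34.5%), against 29.5% of all genes. In 8 members the 3 arrays of CL1-5 lay above the 3 of CL1-0, and in 2 below, against 16.1% and 17.9% of all genes.

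INSIG1 had 13.02, 12.95 and 12.95 in CL1-5 without the field, against 11.34, 11.70 and 12.19 in CL1-0 without the field. The 3 arrays of CL1-5 lay close together and all above those of CL1-0. The difference was 1.23 ± 0.31 (2.34-fold, limma adjusted p = 0.0171). LPIN1 had 10.36, 10.58 and 10.41 in CL1-5, against 9.0, 9.02 and 9.34 in CL1-0. The lines lay far apart on all arrays, and the difference was 1.33 ± 0.21 (2.52-fold, limma adjusted p = 0.000906). NSDHL had 9.49, 9.07 and 9.37 in CL1-5, against 9.71, 9.88 and 10.01 in CL1-0, with no overlap but with an adjusted p of 0.0726 by limma (−0.56 ± 0.20).

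The 3 enzymes past the test act in the order SQLE, LSS and MSMO1 between squalene and cholesterol, not all of them on neighbouring steps. SQLE, squalene epoxidase, adds the oxygen on which the ring closes and had 12.60, 12.68 and 12.68 in CL1-5, against 12.19, 11.43 and 12.19 in CL1-0. LSS, lanosterol synthase, closes the ring and had 11.5, 10.69 and 10.91 in CL1-5, against 10.32, 9.70 and 10.10 in CL1-0. MSMO1, the sterol C4 methyl oxidase, starts the removal of methyl groups from the ring and had 12.63, 12.57 and 12.88 in CL1-5, against 11.01, 11.39 and 11.99 in CL1-0. None of the 3 overlapped between the lines, and for SQLE replicate 2 of CL1-0 lay farthest off. By limma the difference was 0.72 ± 0.23 for SQLE (adjusted p = 0.0485), 1.0 ± 0.29 for LSS (adjusted p = 0.0339) and 1.23 ± 0.34 for MSMO1 (adjusted p = 0.0254). MSMO1 and NSDHL, neighbouring steps of the same demethylation, had differences of opposite sign in both conditions.

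The calls without the field rest on single arrays to different degrees. Leaving out each of the 12 arrays in turn did not end the LPIN1 call (limma adjusted p between 0.00075 and 0.00578). The INSIG1 call ended without replicate 1 or without replicate 2 of CL1-0 without the field (adjusted p = 0.064 and 0.0536). The MSMO1 call ended without either of the same arrays (0.0907 and 0.0772) and without replicate 2 or 3 of CL1-5 without the field (0.054 and 0.0884). The LSS call ended without replicate 2 or 3 of CL1-0 without the field (0.131 and 0.0793) and without replicate 1 or 3 of CL1-5 without the field (0.113 and 0.0688). The SQLE call ended in 9 of 12 cases, and held only without replicate 1 of CL1-0 without the field, replicate 2 of CL1-0 under the field or replicate 1 of CL1-5 under the field. The count of all members past the test, 5 on all arrays, can take in members outside these 5 when an array is left out. It fell to 2 without replicate 2 of CL1-0 without the field, where LPIN1 alone of the 5 still passed. It also fell to 2 without replicate 3 of CL1-5 without the field. It fell to 3 when CL1-0 without the field lost replicate 1 or 3 or CL1-5 without the field lost replicate 2.

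That NSDHL passed under the field alone, and SQLE, LSS and MSMO1 without it alone, does not show that the conditions differ. The test of that difference, the field response of CL1-5 minus that of CL1-0, called no member, and for SQLE it was −0.39 ± 0.32 (limma adjusted p = 1). The line difference had the same sign under and without the field in 24 of 29 members (82.8%), against 80.9% of all genes. DHCR7, EBP, FADS2, HSD17B7 and MVD had opposite signs.

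**Figure D2:**
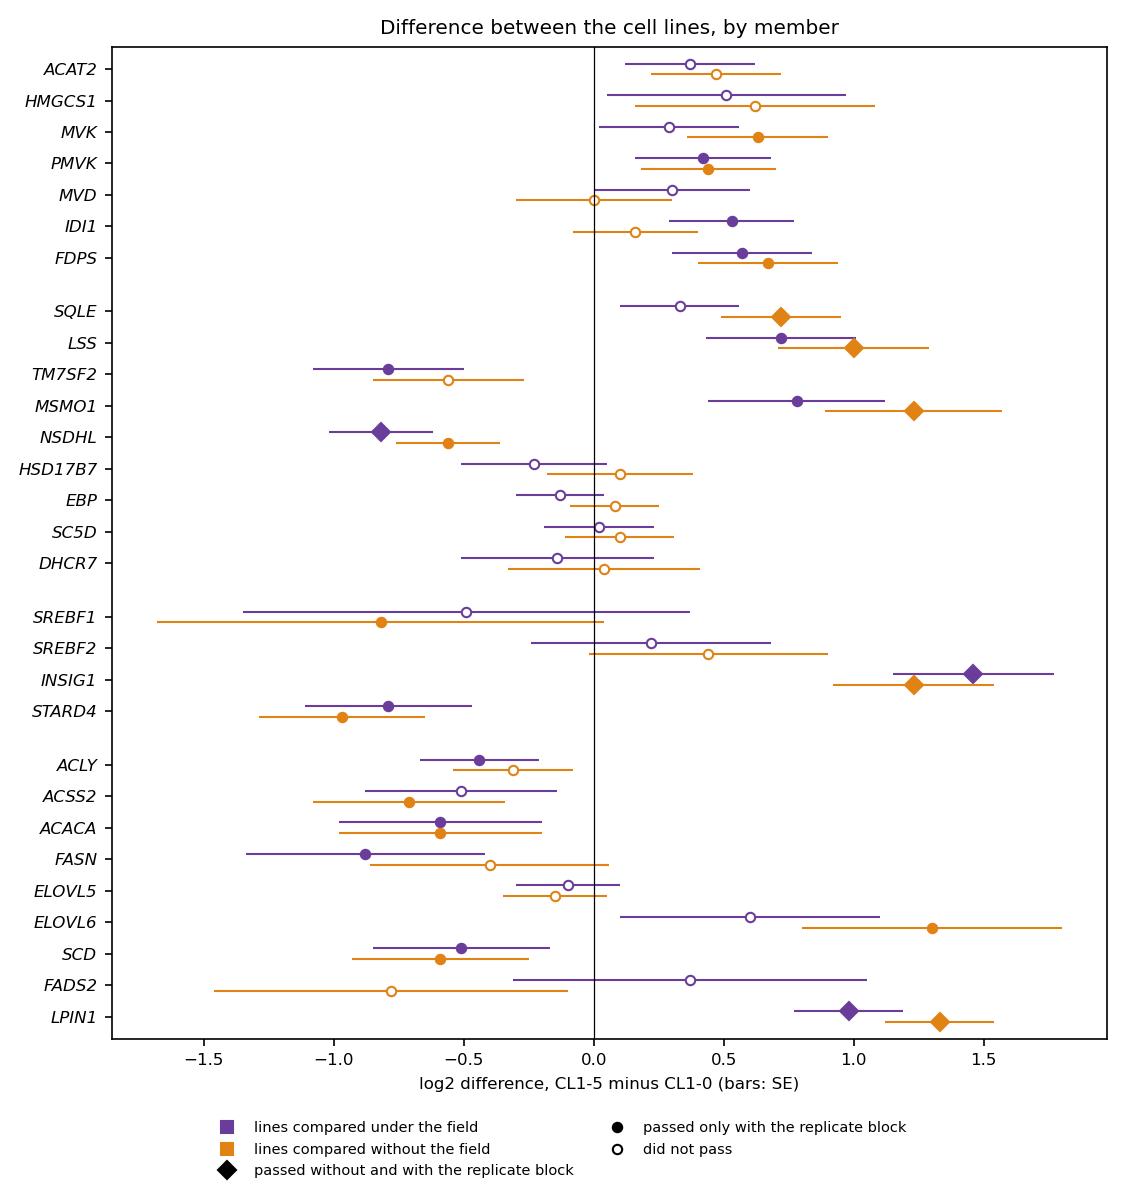
Log2 difference of CL1-5 minus CL1-0 for each member, under the field and without it, with bars of 1 SE. Filled diamonds pass an adjusted p of 0.05 in the fit without a block. They are INSIG1 and LPIN1 in both conditions, NSDHL, below 0, under the field, and SQLE, LSS and MSMO1 without it. Filled circles pass only with the replicate block, and open circles pass neither fit.

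Arrays of the same replicate number deviated from their group means together in every pair of groups compared, so the lines were also compared with the replicate number as a block. With the block, 14 members differed under the field, 7 higher and 7 lower in CL1-5, or 48.3% of 29, against 38.1% of all genes (17.3% higher, 20.8% lower). Without the field 15 differed, 9 higher and 6 lower, or 51.7%, against 35.5% of all genes (16.7% higher, 18.8% lower). At an unadjusted p under 0.05 the blocked fit gave 15 members under the field (51.7%) and 19 without it (65.5%), against 47% and 44% of all genes. The shares in the blocked fit lay above those of all genes. In the unblocked fit the adjusted counts did not.

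In the mevalonate and isoprenoid steps, PMVK and FDPS, phosphomevalonate kinase and farnesyl diphosphate synthase, were higher in CL1-5 with the block in both conditions. FDPS had 12.51, 13.23 and 12.60 in CL1-5 under the field, against 12.01, 12.14 and 12.48 in CL1-0 under the field, and 12.26, 13.11 and 13.01 against 11.86, 12.37 and 12.16 without it. The arrays of the lines did not overlap under the field and did without it, and the difference was 0.57 and 0.67 (blocked adjusted p = 0.019 and 0.00898). IDI1, the isopentenyl isomerase, was higher under the field (0.53, blocked adjusted p = 0.0463), and MVK, mevalonate kinase, without it (0.63, blocked adjusted p = 0.0301). No member of these steps was lower in CL1-5 by either fit. The median difference of these 7 members was 0.42 under the field and 0.47 without it, with 7 of 7 and 6 of 7 above 0, against medians of −0.08 and −0.03 over all genes. Under the field the median was 0.40, 1.01 and −0.03 in the 3 pairs, with 3 of 7 above 0 in the pair of replicate 3, and without it 0.31, 0.74 and 0.35. In replicates 2 and 3 alone it was 0.40 and 0.55, under and without the field, with 7 of 7 above 0 in both, but PMVK under the field, IDI1 and MVK did not pass there.

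In the squalene and sterol ring steps the blocked fit called LSS and MSMO1 higher in both conditions, NSDHL lower in both, TM7SF2 lower under the field, and SQLE higher without it. TM7SF2, a sterol C14 reductase, had 7.20, 7.65 and 7.63 in CL1-5 under the field, against 8.36, 7.99 and 8.51 in CL1-0 under the field. The 3 arrays of CL1-5 lay below all of CL1-0, and the difference was −0.79 (blocked adjusted p = 0.036), against −0.61 in replicates 2 and 3 alone (limma adjusted p = 0.175). The last steps had small differences. SC5D, the desaturase before the last reductions, differed by 0.02 and 0.10, EBP by −0.13 and 0.08, and DHCR7, which makes cholesterol from its last precursor, by −0.14 and 0.04, under and without the field in each case, and none passed either fit. With 4 of 9 differences above 0 under the field and 7 of 9 without it, the median of these steps was −0.13 and 0.10.

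Of the sensing and transfer genes, STARD4 and SREBF1 were lower in CL1-5 with the block. STARD4, which carries cholesterol between membranes, had 10.69, 10.58 and 10.66 in CL1-5 under the field, against 11.69, 10.67 and 11.94 in CL1-0 under the field. Replicate 2 of CL1-0 lay close to CL1-5 and inside its range, and the difference was −0.79 (blocked adjusted p = 0.0173). Without the field it had 10.84, 10.70 and 10.61 in CL1-5, against 11.71, 11.18 and 12.16 in CL1-0. There the lines did not overlap (−0.97, adjusted p = 0.0565 unblocked and 0.00608 blocked). In the unblocked fit of replicates 2 and 3 alone it did not pass under or without the field (limma adjusted p = 0.203 and 0.0675). With the block in these arrays it passed only without the field (blocked adjusted p = 0.103 under the field and 0.0261 without it). SREBF1 had 10.97, 8.30 and 8.18 in CL1-5 without the field, against 11.21, 9.05 and 9.63 in CL1-0 without the field. The lines overlapped over all arrays, but within each replicate number CL1-5 was lower, by 0.24, 0.75 and 1.45 (−0.82, blocked adjusted p = 0.0137), while under the field the difference of −0.49 did not pass (blocked adjusted p = 0.107). SREBF2, which encodes SREBP-2, the form that acts most on cholesterol genes, was higher in CL1-5 in all 3 pairs of both conditions but passed neither fit (0.22 under the field and 0.44 without it).

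The fatty acid steps had a median difference of −0.44 under the field and −0.40 without it, with 3 of 9 and 2 of 9 members above 0. The median was −0.27, −0.05 and −0.51 in the 3 pairs under the field and −0.34, −0.14 and −0.48 without it, and −0.29 and −0.31 in replicates 2 and 3 alone. SCD had 14.19, 13.27 and 13.85 in CL1-5 under the field, against 14.60, 13.89 and 14.36 in CL1-0 under the field, and 14.40, 13.31 and 13.32 against 14.71, 13.83 and 14.28 without it. The lines overlapped over all arrays, yet CL1-5 was lower in every pair of replicates (−0.51 and −0.59, blocked adjusted p = 0.0156 and 0.00761). ACACA, acetyl-CoA carboxylase 1, which makes malonyl-CoA, was lower in CL1-5 by 0.27, 0.76 and 0.73 in the 3 pairs under the field and by 0.63, 0.41 and 0.72 without it (blocked adjusted p = 0.00563 and 0.00606). FASN, the fatty acid synthase, had 10.67, 10.50 and 10.67 in CL1-5 under the field, against 12.32, 10.97 and 11.18 in CL1-0 under the field. The arrays did not overlap, replicate 1 of CL1-0 was the farthest, and the difference of −0.88 had a blocked adjusted p of 0.0111 under the field, against 0.221 for −0.40 without it. By pairs it was −1.65, −0.47 and −0.51 under the field. In replicates 2 and 3 alone it was −0.49 (limma adjusted p = 0.067 unblocked and 0.0235 blocked). Replicate 1 of FASN lay 0.08 above the mean of replicates 2 and 3 in CL1-5 under the field. It lay 1.16 above it in CL1-5 without the field, 1.24 in CL1-0 under the field and 1.41 in CL1-0 without the field. ACLY, ATP citrate lyase, was lower under the field (−0.44, blocked adjusted p = 0.0273), and ACSS2, which makes acetyl-CoA from acetate, without it (−0.71, blocked adjusted p = 0.04).

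ELOVL6, the elongase that extends palmitate, and LPIN1 were the members of the fatty acid steps with differences above 0 in both conditions. FADS2 differed by 0.37 under the field and −0.78 without it and passed neither fit. Under the field ELOVL6 had 9.17, 10.09 and 9.99 in CL1-5, against 8.15, 9.53 and 9.77 in CL1-0. The difference of 0.60 passed neither fit (blocked adjusted p = 0.0574). Without the field it had 9.78, 10.54 and 10.22 in CL1-5, against 7.89, 9.13 and 9.63 in CL1-0, with no overlap (difference 1.3, 2.46-fold, limma adjusted p = 0.0994 unblocked and 0.000956 blocked). ELOVL5, an elongase of polyunsaturated chains, differed by −0.10 under the field and −0.15 without it and passed neither fit.

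Without the block, replicates 2 and 3 alone gave 8 members under the field, against 31.8% of all genes (14.9% higher, 16.9% lower). Of these, 6 were higher (FDPS, HMGCS1, INSIG1, LPIN1, LSS and MSMO1) and 2 lower (ACACA and NSDHL). Without the field the same arrays gave 12 members, against 30.9% of all genes (14.4% higher, 16.4% lower). Of these, 9 were higher (ELOVL6, FDPS, HMGCS1, INSIG1, LPIN1, LSS, MSMO1, PMVK and SQLE) and 3 lower (NSDHL, SCD and SREBF1). HMGCS1, the HMG-CoA synthase, was called in these 8 arrays in both conditions (0.83 under the field, limma adjusted p = 0.03, and 0.77 without it, adjusted p = 0.0416). Over all 12 arrays it passed neither the unblocked nor the blocked fit. INSIG1 and LPIN1 passed in both conditions in the unblocked fit, the blocked fit and replicates 2 and 3 alone. FDPS, LSS, MSMO1 and NSDHL passed in both conditions in the blocked fit and in replicates 2 and 3 alone.

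Many members were highest or lowest on replicate 1 in all 4 groups. SREBF1 was 1.69 to 2.73 higher on replicate 1 than the mean of replicates 2 and 3 of the same group, and SREBF2 0.92 to 1.16 higher. FADS2, ACACA, DHCR7, SCD, LSS and MVK were also highest on replicate 1 in every group. ELOVL6 was lower there by 0.60 to 1.5 and HMGCS1 by 0.44 to 1.41, and ACLY, FDPS, ELOVL5, ACAT2, SC5D and LPIN1 were also lowest in every group. This makes 8 members highest and 8 lowest on replicate 1 in all 4 groups, 27.6% each, against 18.1% and 20.9% of all genes. The SE of the SREBF1 line difference was 0.86 without the block and 0.22 with it.

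**Figure D3:**
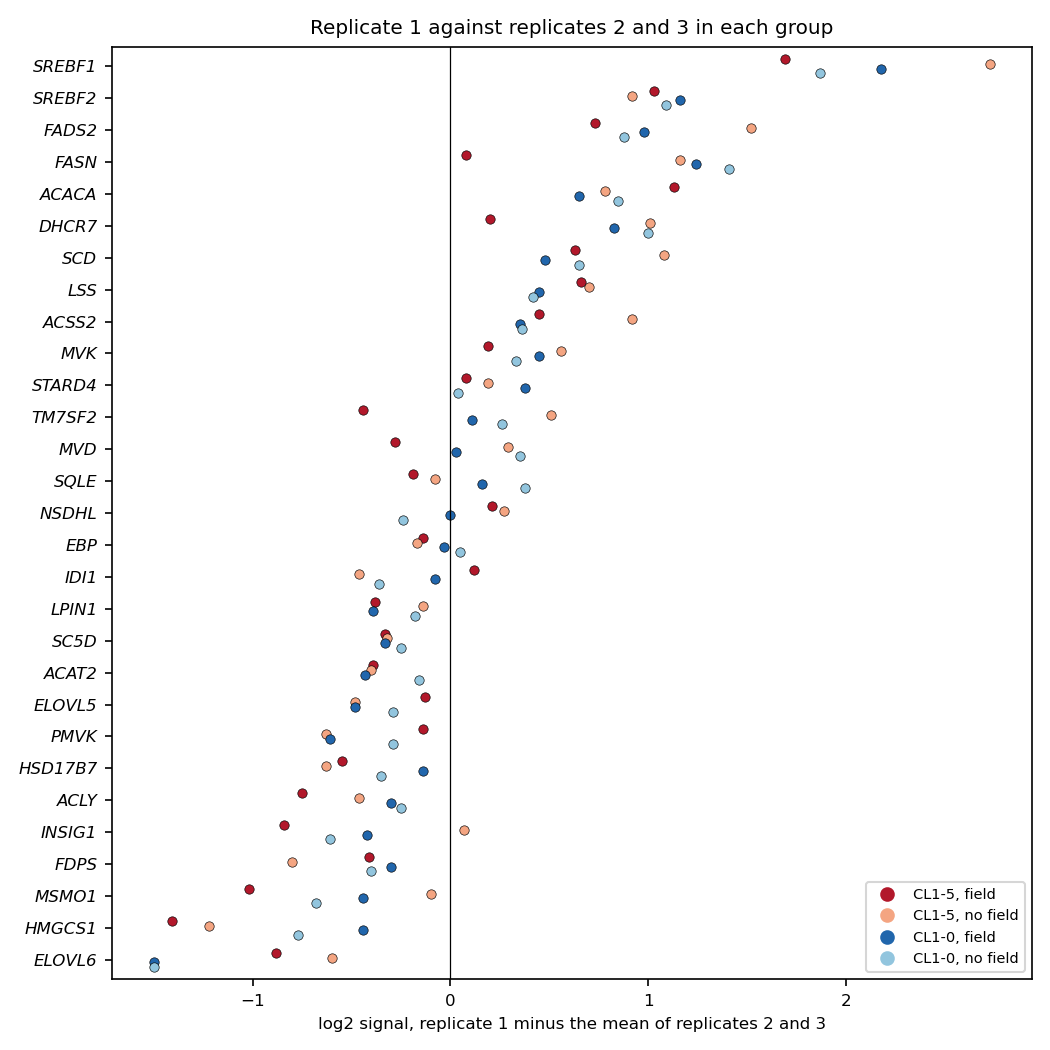
Log2 signal of replicate 1 minus the mean of replicates 2 and 3, for each member in each of the 4 groups. SREBF1 lies 1.69 to 2.73 above 0 and ELOVL6 0.60 to 1.5 below it in all groups.

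Several members are read by more than 1 probe set. Of 29 members 18 had more than 1 past the filter, 64 probe sets in all for the 29. All probe sets of a gene had line differences of the same sign in 13 of these 18 under the field and in 14 without it. For INSIG1 the other 2 probe sets gave 1.87 and 1.3 under the field, and without it 1.15 and 0.51, where neither passed (limma adjusted p = 0.106 and 0.404). For LPIN1 the second probe set gave 1.13 under the field and 1.81 without it, and the third, dimmer one gave 1.64 and 1.0 (adjusted p = 0.0547 and 0.258). LSS gave 1.47 and 0.57 on its other probe sets without the field, and SQLE gave 0.58 to 1.0 on its other 3 with adjusted p between 0.105 and 0.224. The 4 probe sets of SCD were all lower in CL1-5, by 0.59 to 1.40 without the field. ACACA gave −1.1 under the field and −0.97 without it on its second, dimmer probe set, against −0.59 in both on the one used. The members whose probe sets differed in sign without the field were IDI1 (−0.93 to 0.19), SC5D (−1.35 to 0.10), SREBF2 (−0.53 to 0.54) and ELOVL5 (−0.15 to 0.35). Under the field they were IDI1 (−0.90 to 0.53), MVK (−0.10 to 0.89), EBP (−2.43 to 0.28), SC5D (−0.92 to 0.02) and ELOVL5 (−0.14 to 0.65). IDI1 was called higher under the field with the block on the probe set used, and its other probe sets gave 0.36, −0.11 and −0.90 there. SREBF1 gave −2.17 under the field and −0.34 without it on its second, dimmer probe set, against −0.49 and −0.82 on the one used. The condition with the larger difference thus depended on the probe set.

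**Figure D4:**
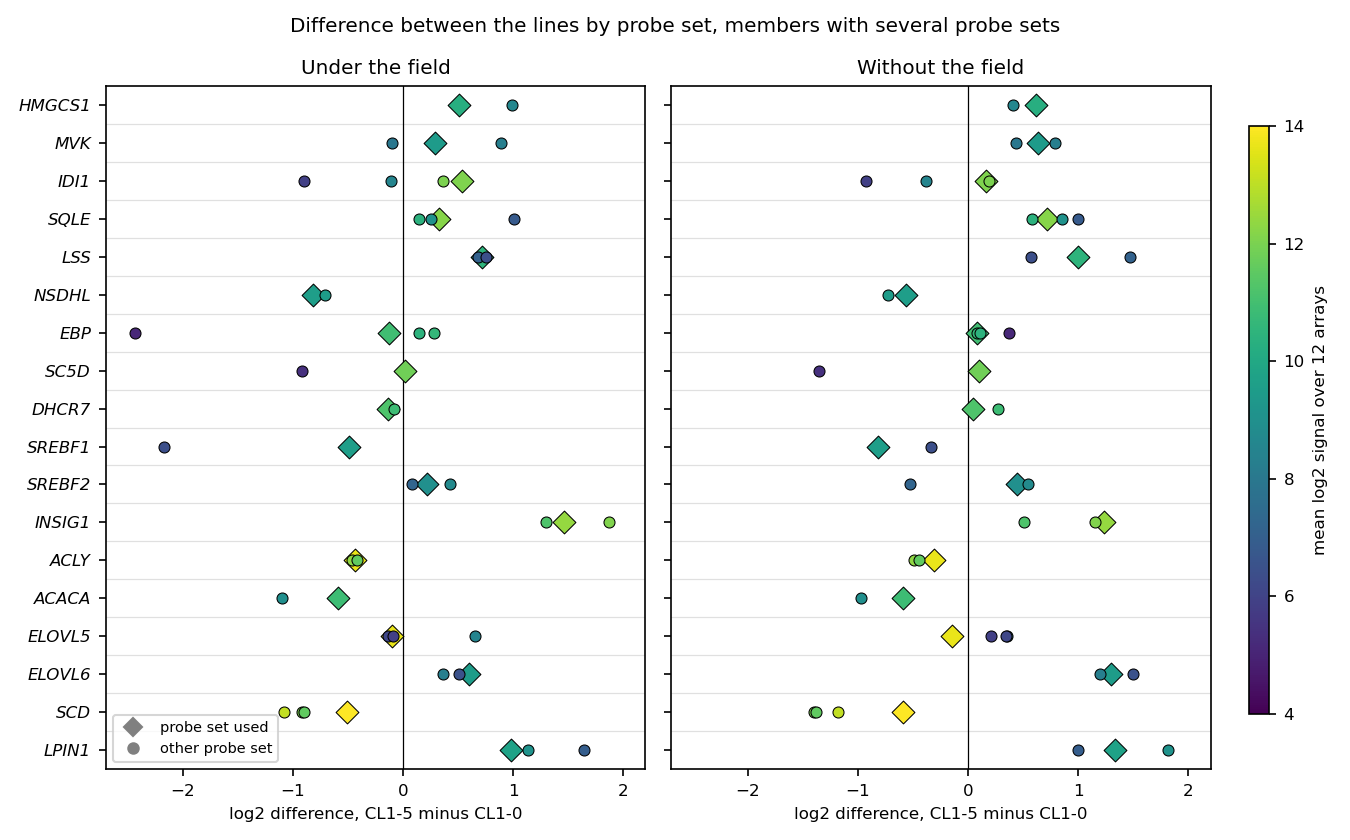
Log2 difference of CL1-5 minus CL1-0 on every probe set of the 18 members with more than 1, under the field and without it. Diamonds are the probe sets used and circles the others. All probe sets of INSIG1, LPIN1, LSS and SQLE lie above 0 and all of SCD, ACACA and NSDHL below it in both conditions.

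No member passed the test for the field in CL1-5. By limma 0 of 29 members passed an adjusted p of 0.05, as did 0% of all genes, with and without the replicate block and in replicates 2 and 3 alone, and at an unadjusted p under 0.05 there were 0 members without the block, against 1.86% of all genes. With the block 3 members had an unadjusted p under 0.05 (EBP, MSMO1 and SQLE, 10.3%), against 7.1% of all genes. The median change was −0.08, against −0.01 over all genes, and 8 of 29 changes were above 0 (27.6%, against 48.9% of all genes). In the squalene and sterol ring steps 0 of 9 were above 0, with a median of −0.27. Pair by pair 0, 2 and 3 of the 9 were above 0, and in replicates 2 and 3 alone 2 of 9 were (TM7SF2 at 0.18 and DHCR7 at 0.02), with a median of −0.17.

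SQLE had 12.14, 12.31 and 12.34 in CL1-5 under the field, against 12.60, 12.68 and 12.68 in CL1-5 without the field. It was the only member whose groups did not overlap in CL1-5 (1 of 29 lower, against 2.56% of all genes, and 0 of 29 higher, against 3.1%), and the change was −0.39 ± 0.23 (limma adjusted p = 1). EBP had the smallest p, with 10.67, 10.99 and 10.62 under the field, against 10.99, 11.18 and 11.14 without it. Replicate 2 under the field reached replicate 1 without it, and the change was −0.34 ± 0.17 (limma adjusted p = 1). MSMO1 was lower by 1.09 in the pair of replicate 1 and by 0.15 and 0.20 in the others.

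By pairs of the same replicate number, 11 of 29 members were lower under the field in all 3 pairs of CL1-5 (37.9%, against 14.9% of all genes), and 1, FADS2, was higher in all 3 (3.45%, against 14.2% of all genes). The 11 were ACAT2, HMGCS1 and MVK of the mevalonate steps, SQLE, LSS, MSMO1, HSD17B7 and EBP of the sterol steps, and FASN, ELOVL6 and LPIN1. Pair by pair the median over the members was −0.26, −0.12 and −0.07, and that over all genes −0.03, −0.01 and 0.03. In pairs 1, 2 and 3 of CL1-5, 7, 10 and 11 of 29 members were above 0. Replicate 1 of CL1-5 under the field enters the pair with the lowest median. It also had the highest ratio of 3′ to 5′ signal of beta-actin (1.54, against 1.21 to 1.32 on the other 11 arrays). This ratio is a measure of RNA integrity, and its part in these changes was not tested.

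In CL1-0 no member passed either, and the changes lay on both sides of 0. Again 0 members passed, blocked, unblocked or in replicates 2 and 3 alone, and 0 had an unadjusted p under 0.05 with or without the block, against 0.958% and 2.29% of all genes. The median change was 0.00, with 15 of 29 above 0 (51.7%, against 52.5% of all genes). No member had groups without overlap, against 1.89% of all genes higher and 1.56% lower. MVD, which decarboxylates mevalonate diphosphate, had the smallest p, with 7.82, 7.32 and 8.28 in CL1-0 under the field, against 8.42, 7.73 and 8.42 in CL1-0 without the field. It was lower in all 3 pairs with overlapping groups (−0.39 ± 0.30, limma adjusted p = 1). FADS2 came next among the 29 at −0.58 ± 0.68 with replicates far apart, 7.02, 5.08 and 7.01 under the field, against 7.54, 7.19 and 6.13 without it. MVD and STARD4 were the 2 members lower in all 3 pairs (6.9%, against 12.8% of all genes), and ELOVL6 and LPIN1 the 2 higher in all 3 (6.9%, against 15% of all genes).

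Averaged over the lines, 0 members passed, with 0 at an unadjusted p under 0.05, against 0.98% of all genes, and 1 with the block (EBP, −0.24), against 3.12%. The median was −0.02, with 10 of 29 above 0 (34.5%, against 50.1% of all genes). The response of CL1-5 minus that of CL1-0 was called in 0 members, with 0 at an unadjusted p under 0.05 in either fit, against 1.08% and 4.6% of all genes. Its median was −0.11, with 10 of 29 above 0 (34.5%, against 46.9%). The smallest p were those of SQLE, given above, and of FADS2 (1.14 ± 0.97, limma adjusted p = 1). The 95% confidence intervals of the field changes reached 0.37 to 1.88 log2 units to either side, so that a change of the size of the EBP value could be missed in any member, and INSIG1 in CL1-5 (0.20) had an interval of −0.48 to 0.88.

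**Figure D5:**
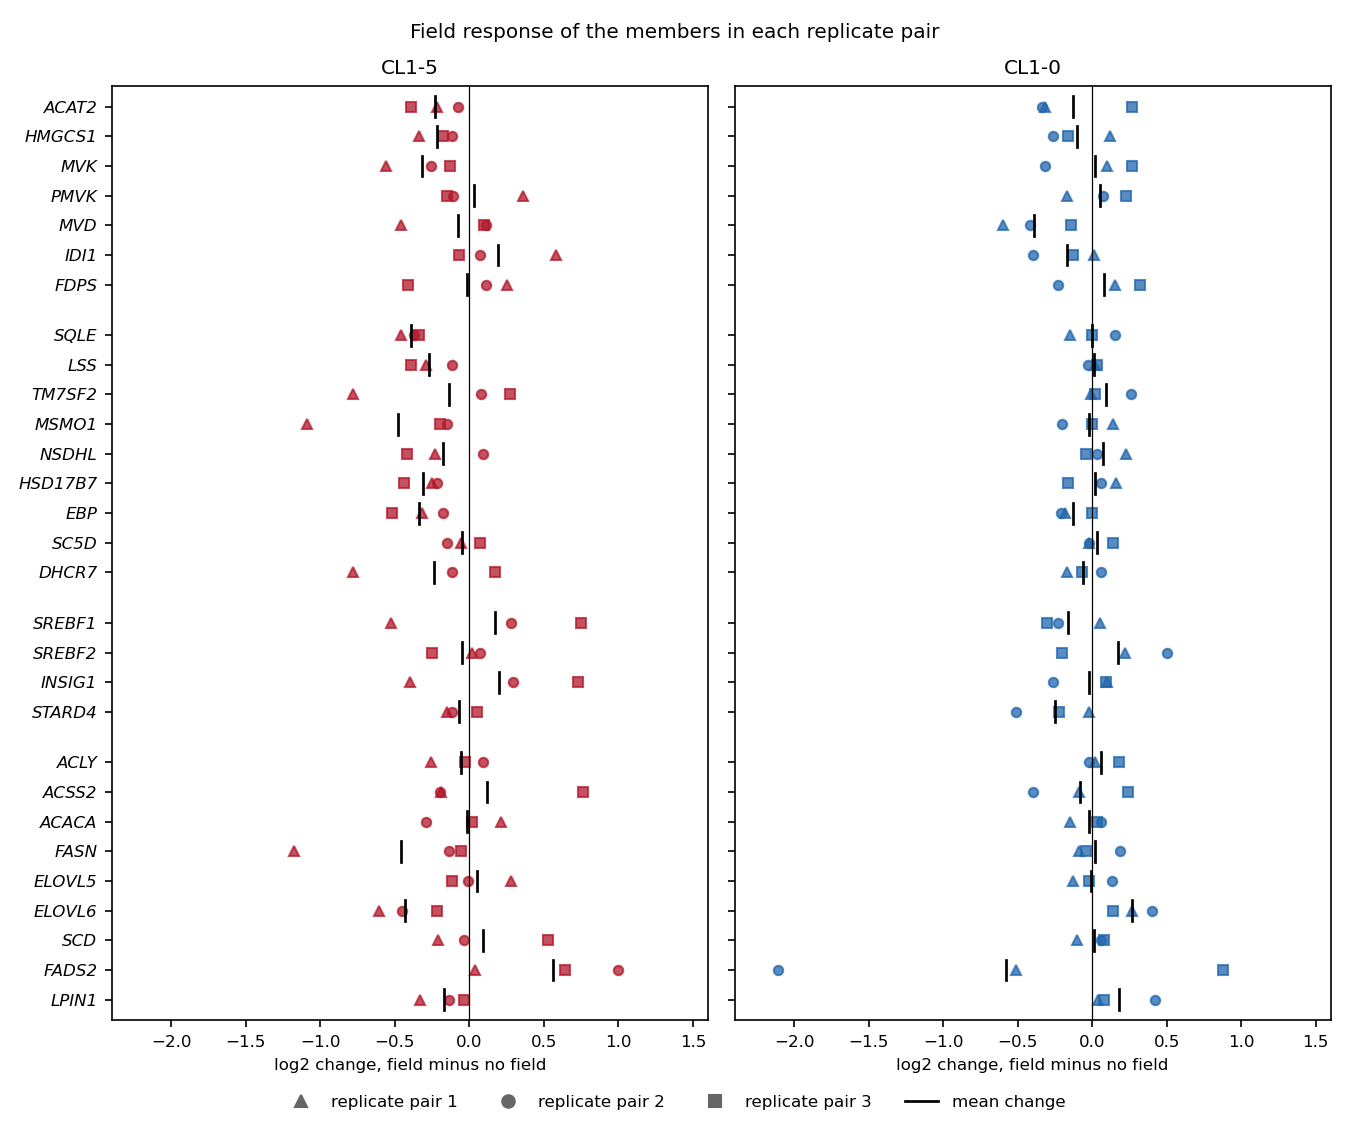
Log2 change, field minus no field, of each member in the 3 replicate pairs of CL1-5 and of CL1-0, by role. In CL1-5 the 9 members of the squalene and sterol ring steps have means below 0 over the 3 pairs (7 of 9 in replicates 2 and 3 alone), and 11 members lie below 0 in all 3 pairs. In CL1-0 the values lie on both sides of 0.

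For scale, 16 of 29 members were above 0 in the line comparison under the field (55.2%, against 45.3% of all genes) and 17 of 29 without it (58.6%, against 48% of all genes). The medians over the members were 0.22 and 0.10.

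Other genes of lipid metabolism, 45 tested of 55 listed, came from a list of related pathways. Under the field 2 were higher and 5 lower in CL1-5, and without it 1 was higher and 7 were lower (limma, adjusted p under 0.05). With the block these counts were 6 and 10 under the field and 7 and 11 without it, and in replicates 2 and 3 alone 3 and 8, and 3 and 10. Of all genes 9.81% were higher and 9.63% lower under the field and 9.03% and 8.93% without it, and with the block 17.3% and 20.8%, and 16.7% and 18.8%. None of 7 other isoprenoid and sterol genes passed in either fit or condition. In the list of fatty acid and glycerolipid genes, 1 of 25 was higher in both conditions, and 4 were lower under the field and 5 without it.

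CPT1A, which brings fatty acids into mitochondria for oxidation, averaged 9.18 ± 0.20 in CL1-5 under the field and 11.28 ± 0.19 in CL1-0 under the field (SD, n = 3 each), a difference of −2.10 ± 0.23 (limma adjusted p = 6.63e-05). Without the field it averaged 9.06 ± 0.39 in CL1-5 and 11.20 ± 0.13 in CL1-0 (−2.14 ± 0.23, limma adjusted p = 5.39e-05). ELOVL2, an elongase of very long polyunsaturated chains, was higher in CL1-5 by 1.66 ± 0.26 and 1.74 ± 0.26 under and without the field (limma adjusted p = 0.000817 and 0.000554). ELOVL7, another elongase, was lower by 1.75 ± 0.49 and 1.74 ± 0.49 (adjusted p = 0.026 and 0.0283). In replicates 2 and 3 alone these 3 genes passed in both conditions too, with differences of −2.29 and −2.07 for CPT1A, 1.61 and 2.01 for ELOVL2 and −1.80 and −1.55 for ELOVL7. MLXIPL, which encodes the carbohydrate-responsive factor ChREBP, is also counted as lower without the field. It averaged 3.04 ± 0.38 in CL1-5 without the field and 6.55 ± 0.24 in CL1-0 without the field (SD, n = 3 each), lay above the array median on 0 of 6 arrays of CL1-5, so that it passed the filter through CL1-0 alone, and did not pass in replicates 2 and 3 alone (limma adjusted p = 0.056). No fold is given for it.

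Among genes of cholesterol transport, SCARB1, the receptor that takes up cholesteryl ester from high-density lipoprotein, averaged 9.27 ± 0.07 in CL1-5 under the field and 11.03 ± 0.59 in CL1-0 under the field (SD, n = 3 each). Without the field it averaged 9.53 ± 0.64 in CL1-5 and 10.97 ± 0.76 in CL1-0. The difference was −1.76 and −1.44 (limma adjusted p = 0.0116 and 0.0328), and −1.47 and −1.39 in replicates 2 and 3 alone. NPC2, which moves cholesterol out of lysosomes, was lower without the field (−0.59, limma adjusted p = 0.0467). Of the SREBP processing genes, RNF139, a ubiquitin ligase of the endoplasmic reticulum, was higher in CL1-5 under the field (0.81 ± 0.20, limma adjusted p = 0.0134), and with the block 2 of 5 were higher under the field and 3 of 5 without it. In the 4 field comparisons 0 of these 45 genes passed with or without the block.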

How the data were processed

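The deposited values are linear array intensity signals, 1 per probe set and array, which came from the MAS5 algorithm per the submitters' processing notes. No version or filter of it is named in the sources used here. Signals below 1 (3691 values) were set to 1 and log2 was taken of the deposited intensity. Of 54675 probe sets, 62 are controls, and 41091 others carry 1 gene symbol in the platform annotation, 1801 several and 11721 none. Probe sets above their array's median on at least 3 arrays were kept (31890), and each gene was read by its single-symbol probe set with the highest mean log2 (13882 genes). All 12 arrays were fitted with 4 group means in limma 3.58.1 (lmFit, eBayes with trend; R 4.3.3, data.table at version 1.17.8), and p-values were Benjamini-Hochberg adjusted over all genes at 0.05. Promoters and figures were made with Python 3.11.15, pandas 2.3.3 and matplotlib 3.10.9.

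Arrays that share a replicate number, taken as deviations from their group means, correlated at 0.551, 0.423 and 0.187 between the CL1-5 groups, 0.609, 0.346 and 0.363 between the CL1-0 groups, 0.424, 0.253 and 0.245 between the lines under the field and 0.471, 0.278 and 0.189 between the lines without it. The labels do not state a pairing. The numbers were taken as pairs because every value exceeds 0.1. For replicates 2 and 3 the highest value with another number was 0.173 to 0.284, also above 0.1. The rule therefore cannot tell the pairs of replicates 2 and 3 from other pairs. In replicate 3 of CL1-5 and of the lines without the field, another number correlated higher (0.23 and 0.227). Replicate 1 also has almost no spike-in signal, so pairing and a batch cannot be told apart.

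Members, lists and tests were chosen with earlier results of these data known. Named are members past the test in either fit, the 2 with the smallest p where none passed, and up to 3 genes of each other list. Members described by replicates, pairs or probe sets were chosen after their values were seen. The fit was tested on simulated data.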

Additional observations from a re-analysis of the deposited data

Results flagged for a closer look

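ELOVL6 had log2 changes under the field of opposite sign in the lines, in every pair of replicates. Its log2 change was −0.61, −0.45 and −0.22 in the 3 pairs of CL1-5 and 0.27, 0.40 and 0.14 in the 3 pairs of CL1-0. The response of CL1-5 minus that of CL1-0 was −0.70 ± 0.71 (SE), and the limma test of that difference over all genes did not call it (adjusted p = 1, and 0.9 with the replicate block). LPIN1 did the same, with −0.33, −0.14 and −0.04 in CL1-5 and 0.04, 0.42 and 0.08 in CL1-0. Its difference was −0.35 ± 0.30, with the same adjusted p of 1 and 0.9. Of all genes 14.9% were lower in all 3 pairs of CL1-5, and 15% were higher in all 3 pairs of CL1-0. The share of all genes that did both is not given here, so the pattern is not shown to be particular to these members.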

How the results depend on the processing

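The line differences depended on how replicates were treated. With the replicate block 14 members differed under the field and 15 without it, with replicate 1 against the others as a block 13 and 13, in replicates 2 and 3 alone 8 and 12, and in these with the block, a setting chosen after seeing the data, 10 and 15, against 3 and 5 in the fit as designed. In a fit of only the groups compared, 3 passed without the field. Leaving out 1 array gave counts of 2 to 4 under the field and 2 to 6 without it, and 0 in every field comparison. No setting tried reversed a call, and the field called no member under any of them. The median change of the members in CL1-0 under the field was −0.06 with arrays centred on their median and −0.03 with the probe sets of a gene averaged, against 0, and averaged over the lines it was −0.08 with the mean of probe sets, against −0.02. The cause was not tested. Leaving out 1 array moved these medians between −0.20 and −0.08 in CL1-5, −0.13 and 0.11 in CL1-0, −0.14 and −0.02 averaged over the lines, −0.21 and 0.01 for the difference between the lines, −0.04 and 0.29 for the lines under the field, and 0.04 and 0.21 without it. The SQLE call also ended without the variance trend, with arrays centred, without the filter, with the mean of probe sets and in the groups compared alone (adjusted p between 0.0644 and 0.0947), and that of LSS in the groups alone (0.0599).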
